A study of Mus musculus with 8 samples.

Results

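Microtubules are hollow polymers of alpha- and beta-tubulin, and the proteins that fold, nucleate, cap and bind them set their growth and stability. The genes described here are the tubulins (alpha, beta, gamma, delta and epsilon, with the proteins of the gamma-tubulin complex), the stathmins and the Tppp, tau, end-binding and other microtubule-associated proteins. Members were taken from the array by gene name: names that begin with Tuba, Tubb, Tubd, Tube or Tubg, plus 15 names written out (Tppp, Tppp3, Stmn1 to Stmn4, Mapt, Map1a, Map1b, Map2, Map4, Map7 and Mapre1 to Mapre3). This gave 37 gene names with 51 probes, of 30175 names with 39429 probes on the array. Of these names, 25 had 1 probe, 10 had 2 and 2 had 3. None of the names Map1a, Map1b, Map2, Map4 or Map7 was on the array, whose design lists these genes as Mtap1a, Mtap1b, Mtap2, Mtap4 and Mtap7. Their 10 probes were found through RefSeq synonyms after the files had been seen, and they are counted apart from the members.

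The RNA came from E14 cells, a line of mouse embryonic stem cells (ESCs), grown without feeder cells on gelatin in medium with serum and LIF, the cytokine that keeps them undifferentiated. All 4 groups received lentiviruses that carry short hairpin RNAs, and RNA was taken 72 hours after infection from 2 replicates per group, lettered A and B, which gives 8 arrays. The hairpins were directed against GFP in control KD (knockdown) cells, against Tip60 in Tip60 KD cells, against Hdac6 in Hdac6 KD cells, and against both Tip60 and Hdac6 in double KD cells. Tip60, encoded by Kat5, is an acetyltransferase of the Tip60-p400 chromatin complex, and the comparison was made to ask how far regulation by that complex needs Hdac6. Hdac6 is also the main deacetylase of alpha-tubulin, which is why tubulin genes are of interest here. The arrays measure RNA, so neither tubulin protein nor its acetylation was measured, and a knockdown leaves some RNA of its target.

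Each level below is the log2 of a probe's signal after division by the 75th percentile of its array. Signal under a common floor was raised to it, so that the lowest level is -2.71. Probes differ in brightness for reasons other than RNA amount, so levels are compared between groups and never between probes. A change is a difference between group means of these levels, given with its standard error (SE), and a probe was called at a limma adjusted p (Benjamini-Hochberg over 22594 probes) under 0.1. In whole-culture RNA, fewer cells that express a gene and less RNA per cell cannot be told apart.

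The targeted genes followed the labels. For the Kat5 probe A_55_P1996329, levels were 0.64 and 0.65 on the control KD arrays, -0.91 and -0.86 for Tip60 KD, 0.77 and 0.89 for Hdac6 KD and -0.91 and -0.94 for double KD. The Hdac6 probe A_55_P2009792 had levels of 2.21 and 2.18 on the control arrays, 1.74 and 1.77 with Tip60 KD, -0.28 and -0.32 with Hdac6 KD and 0.30 and 0.34 with double KD. Both genes were thus low in every array of their own knockdowns, Hdac6 less so in double KD than in Hdac6 KD (difference 0.62 ± 0.07 SE, adjusted p = 0.014, limma). In Tip60 KD this Hdac6 probe was also called lower than in control KD (-0.44, adjusted p = 0.0059, limma). The other Hdac6 probe, A_55_P1992655, was not called there (-0.36, adjusted p = 0.11, limma). Arrays differed in signal over background: between 21896 and 40609 of 43020 spots were well above background, fewest on control KD array B. All 10 markers of embryonic stem cells were above the floor, among them Pou5f1, Sox2 and Nanog, so the RNA carried the defining transcripts of ESCs.

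Of the 51 member probes, 42 were bright enough to test. In Tip60 KD cells 27 of the 42 were called, 21 higher and 6 lower, against 40.6% of all tested probes (20.8% higher and 19.8% lower). In Hdac6 KD cells 19 were called, 13 higher and 6 lower, against a background of 30.0% (14.9% higher and 15.1% lower). In double KD cells 23 were called, 16 higher and 7 lower, against 33.8% (16.8% higher and 17.0% lower). The median change of the 42 probes was 0.25, 0.17 and 0.19 in Tip60, Hdac6 and double KD, and that of all tested probes was 0.07, 0.04 and 0.06. Most of the called members were thus higher in each knockdown, while calls over the whole array were about evenly split. The Hdac6 KD count fell to 11, 12, 11 or 9 when control KD A, control KD B, Hdac6 KD A or Hdac6 KD B was left out, and the share of all probes called fell to 19.1%, 19.0%, 18.6% and 15.6%. Without Hdac6 KD A the Hdac6 KD calls were 5 higher and 6 lower, so that the higher ones were not the majority there, and without control KD B they were 7 higher and 5 lower. The double KD count fell to 15, with 22.9% of all probes called, when double KD B was left out.

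**Figure D1:**
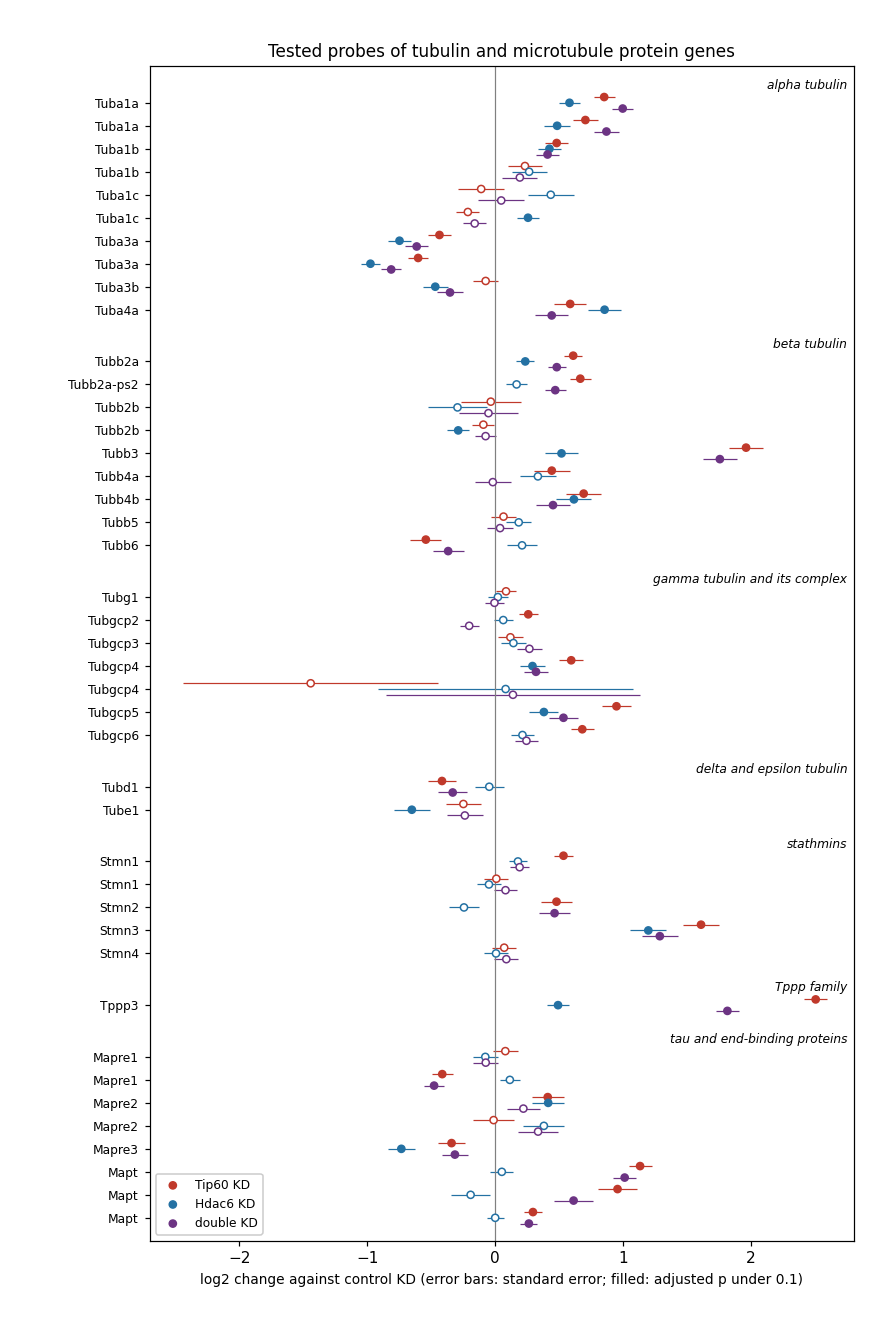
Log2 change against control KD (horizontal axis) of the 42 tested member probes in Tip60 KD (red), Hdac6 KD (blue) and double KD (purple), grouped by role, with standard errors and with filled points where the adjusted p was under 0.1. Tppp3, Tubb3 and Stmn3 lie farthest to the right, Tuba3a and Mapre3 lie left of 0 in all 3 knockdowns, and 1 Tubgcp4 probe has wide errors because a single Tip60 KD array read at the floor.

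The 3 knockdowns share the control KD arrays, so their changes are not independent of each other. Called higher in all 3 were 11 probes: both of Tuba1a and 1 each of Tuba1b, Tuba4a, Tubb2a, Tubb3, Tubb4b, Tubgcp4, Tubgcp5, Stmn3 and Tppp3. Over all tested probes 8.94% were called higher in all 3. Stmn3 was bright enough to test only through its knockdown arrays, so its place among the 11 follows in part from that selection. Lower in all 3 were 3 member probes, both of Tuba3a and the 1 of Mapre3, against 9.53% of all probes. At least 1 knockdown called 31 member probes, against 51.6% of all, and none called the other 11 tested ones. Among the probes that were too dim to test were those of Tppp, Tuba8, Tubal3, Tubb1 and Tubg2 and 1 each of Stmn4, Tubgcp4 and Tubgcp6. The levels of these lay at the floor on all 8 arrays, except for Tubg2 at -2.62 on double KD array A.

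Alpha-tubulin pairs with beta-tubulin to form the building block of the polymer. Of its 10 tested probes, 6 were called in Tip60 KD (4 higher, 2 lower), 8 in Hdac6 KD (5 higher, 3 lower) and 7 in double KD (4 higher, 3 lower), against the shares of all probes given above (40.6%, 30.0% and 33.8%, to be read beside each such count of a group or list). Tuba1a, the isotype abundant in developing neurons, rose in all 3 knockdowns. Its probe A_51_P169745 had levels of 2.74 and 2.77 for control KD, 3.64 and 3.57 for Tip60 KD, 3.37 and 3.31 for Hdac6 KD and 3.68 and 3.82 for double KD. No knockdown array overlapped the controls, and the changes were 0.85, 0.58 and 1.00 (each ± 0.08 SE, n = 2; adjusted p = 0.0014, 0.00775 and 0.0017, limma). The position given for that probe covers only part of its 60 bases. The other Tuba1a probe, A_55_P2115057 at chr15:98780266-98780325 (mm9, minus strand), had levels of 2.54 and 2.61 on the control arrays, 3.34 and 3.22 with Tip60 KD, 3.05 and 3.06 with Hdac6 KD and 3.55 and 3.33 with double KD. The changes there were 0.70, 0.48 and 0.87 (each ± 0.10 SE; adjusted p = 0.0041, 0.022 and 0.0037, limma), in the same order as for the first probe. Its Hdac6 KD call was lost without control KD A (change 0.45, adjusted p = 0.101, limma) or Hdac6 KD B (0.48, adjusted p = 0.107). Bases 23 to 52 of that probe are shown with AATAAA, the sequence of the polyadenylation signal, in capitals. AATAAA was in 12.6% of all probes, and its place in the transcript was not checked.
Tuba1a: tgatgggttttaAATAAAatactccctgtc

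Tuba1b, the isotype of dividing cells in general, was called on 1 of its 2 probes, although all knockdown arrays lay above the controls on both. A_55_P2116496 had levels of 6.47 and 6.53 for control KD, 7.03 and 6.93 for Tip60 KD, 7.0 and 6.84 for Hdac6 KD and 6.90 and 6.91 for double KD. It was called in all 3 knockdowns, with changes of 0.48, 0.42 and 0.41 (each ± 0.09 SE; adjusted p = 0.0093, 0.022 and 0.022, limma). The brighter A_55_P2154132 had levels of 6.67 and 6.73 on the control arrays, 6.81 and 7.05 with Tip60 KD, 6.83 and 7.11 with Hdac6 KD and 6.81 and 6.98 with double KD. Here the arrays of slide B read higher than those of slide A in every group, and the changes of 0.23, 0.27 and 0.19 (each ± 0.14 SE) were not called (adjusted p = 0.26, 0.23 and 0.38, limma). With the replicate letter as a block all 3 passed (adjusted p = 0.037, 0.030 and 0.073, limma), and so they did with quantile normalization (0.45, 0.47 and 0.42).

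Tuba1c, a near-identical alpha-tubulin, was called against control KD only in Hdac6 KD, where it was higher, and on 1 probe. On A_55_P2108837 levels were 5.10 and 5.02 for control KD, 4.81 and 4.89 for Tip60 KD, 5.27 and 5.37 for Hdac6 KD and 4.83 and 4.98 for double KD. Tip60 KD and double KD arrays were below the controls and Hdac6 KD arrays above them. The change was 0.26 ± 0.09 SE in Hdac6 KD (adjusted p = 0.098, limma), and the call was lost without any 1 of the 8 arrays (change 0.21 to 0.30, adjusted p = 0.102 to 0.343). The changes of -0.21 in Tip60 KD and -0.16 in double KD were not called (adjusted p = 0.13 and 0.26, limma), and the first passed with the replicate letter as a block (adjusted p = 0.051). These changes depended on the scaling. Over the processing settings they ran from -0.21 to -0.007 in Tip60 KD and from -0.16 to 0.12 in double KD. Between Tip60 KD and Hdac6 KD the level differed by -0.47 ± 0.09 SE (adjusted p = 0.021, limma). The other Tuba1c probe, A_55_P2064547, covers nearly the same bases with 1 difference in 49, and none of its changes was called (-0.11, 0.43 and 0.05, each ± 0.18 SE). Aligned stretches of both are printed to show that difference, in capitals.
Tuba1c A_55_P2064547, bases 14 to 43: tgtcctaaactgtcaataaaggtgtttccA
Tuba1c A_55_P2108837, bases 25 to 54: tgtcctaaactgtcaataaaggtgtttccG

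Tuba3a, an alpha-tubulin best known from testis, fell in all 3 knockdowns. Probe A_55_P1979126 at chr6:125228298-125228357 (mm9, minus strand) had levels of 2.39 and 2.52 on the control arrays, 1.83 and 1.88 with Tip60 KD, 1.49 and 1.47 with Hdac6 KD and 1.66 and 1.63 with double KD. All 6 knockdown arrays lay below both controls, lowest in Hdac6 KD. Changes were -0.60, -0.97 and -0.81 (each ± 0.08 SE; adjusted p = 0.0030, 0.0020 and 0.0023, limma), and Tip60 KD exceeded Hdac6 KD by 0.37 ± 0.08 SE (adjusted p = 0.027). The second Tuba3a probe, A_55_P2015375, shares 51 bases with the first and is no independent check. It had levels of 2.23 and 2.27 for control KD, 1.85 and 1.77 for Tip60 KD, 1.57 and 1.44 for Hdac6 KD and 1.69 and 1.58 for double KD, with changes of -0.44, -0.75 and -0.61. Tuba3b, its close relative at another place on chromosome 6, had changes of -0.07 ± 0.10 SE in Tip60 KD (adjusted p = 0.63, limma), -0.47 with Hdac6 KD (adjusted p = 0.023) and -0.35 with double KD (adjusted p = 0.047). The probes of Tuba3a and Tuba3b matched at 42 of 56 aligned bases, so RNA of either gene may add to the signal of the other. The stretch in which they differ most is printed with the differing bases in capitals.
Tuba3a A_55_P1979126, bases 31 to 60: ggaaataaaggatatAttATTAAaAtTTCT
Tuba3b A_55_P2007991, bases 27 to 56: ggaaataaaggatatGttTACTTaTtAAAG

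Tuba4a, an alpha-tubulin abundant in brain and muscle, rose in all 3 knockdowns. Levels of probe A_52_P676271 were 3.52 and 3.25 on the control arrays, 4.08 and 3.86 with Tip60 KD, 4.27 and 4.22 with Hdac6 KD and 3.89 and 3.76 with double KD. All knockdown arrays lay above both controls. The changes were 0.59, 0.85 and 0.44 (each ± 0.13 SE; adjusted p = 0.017, 0.0088 and 0.053, limma), and Hdac6 KD did not differ from Tip60 KD beyond the spread (Tip60 KD minus Hdac6 KD -0.27, adjusted p = 0.23). The double KD call was lost without control KD B (change 0.31, adjusted p = 0.198), double KD A (0.38, adjusted p = 0.191) or double KD B (0.51, adjusted p = 0.113).

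**Figure D2:**
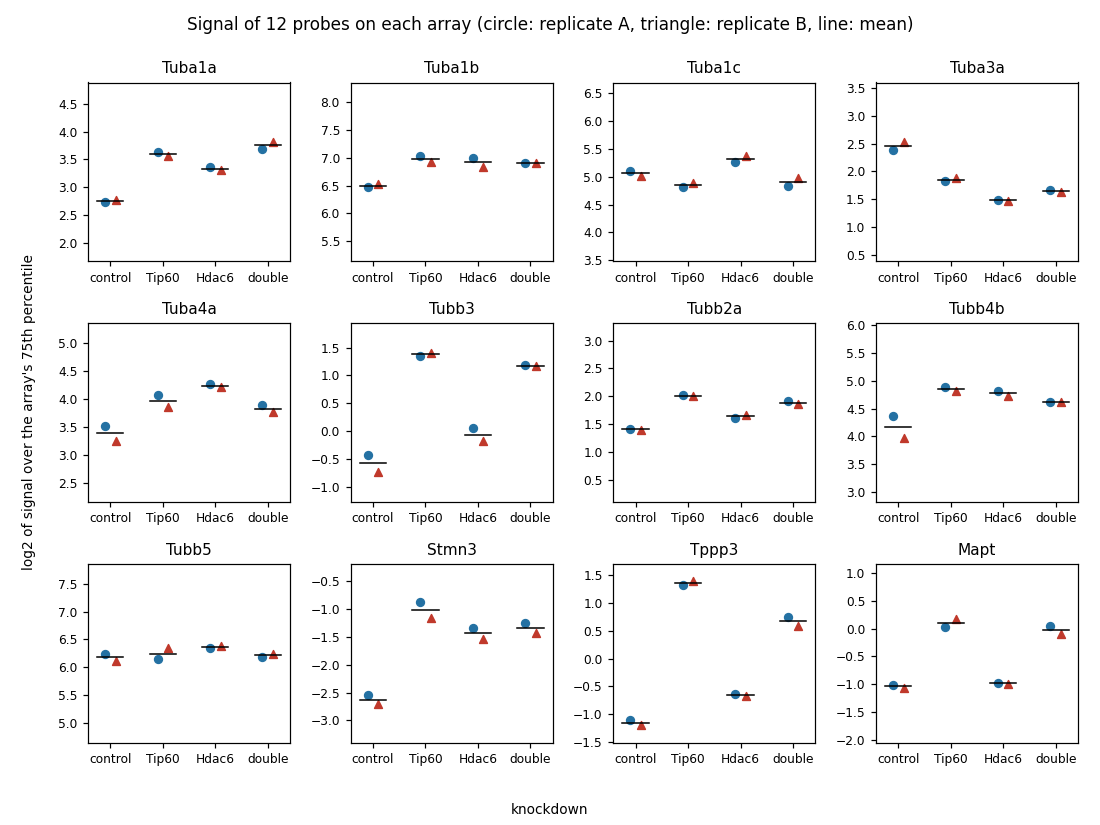
Levels of 12 member probes, each the log2 of signal over the array's 75th percentile (vertical axis), in the 4 groups, with replicate A as circles, replicate B as triangles and the group mean as a line. Tubb3, Tppp3 and Mapt are lower in Hdac6 KD than in Tip60 KD and double KD, whereas Tuba1a, Tuba4a, Tubb4b and Stmn3 are above the control in all 3 knockdowns.

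Beta-tubulin isotypes are the other partner of the dimer. Of 9 tested probes, 6 were called in Tip60 KD (5 higher, 1 lower), 4 in Hdac6 KD (3 higher, 1 lower) and 5 in double KD (4 higher, 1 lower). Tubb3, the isotype used as a marker of neurons, rose most. Its probe at chr8:125945850-125945909 (mm9, plus strand) had levels of -0.42 and -0.74 for control KD, 1.35 and 1.41 for Tip60 KD, 0.05 and -0.17 for Hdac6 KD and 1.19 and 1.17 for double KD. The changes were 1.96, 0.52 and 1.76 (each ± 0.13 SE; adjusted p = 0.00069, 0.041 and 0.0014, limma), or 3.89-fold in Tip60 KD, 1.43-fold in Hdac6 KD and 3.38-fold in double KD. Within slide A the Tip60 KD change was 1.77, and within slide B it was 2.15. The Hdac6 KD call was lost without control KD B (change 0.36, adjusted p = 0.142) or Hdac6 KD A (0.41, adjusted p = 0.168). Tip60 KD exceeded Hdac6 KD by 1.44 ± 0.13 SE (adjusted p = 0.0034, limma), and so did double KD by 1.24 (adjusted p = 0.012), while double KD differed from Tip60 KD by -0.20, within the spread (adjusted p = 0.52). Bases 23 to 52 of the probe again hold AATAAA, in capitals.
Tubb3: aggggtatacttAATAAAgttactgctgtc

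Markers of neurons were counted beside Tubb3, and their part in its change was not tested. Of the 16 in the list 13 were tested, and 7 were called in each knockdown (6 higher with Tip60 KD, 5 with Hdac6 KD and 5 with double KD). Their summed signal, in units of the 75th percentile, was 17.8 to 18.9 on the control KD arrays, 23.9 to 26.2 in Tip60 KD, 19.8 to 20.7 in Hdac6 KD and 23.1 to 23.6 in double KD. Snap25 weighs most in that sum on every array, so the sum follows this gene more than the list as a whole. It was called higher in Tip60 KD (0.32, adjusted p = 0.087, limma). Its changes of -0.04 in Hdac6 KD and 0.19 in double KD were not called (adjusted p = 0.87 and 0.30). The neurofilament genes Nefl and Nefh and the growth-cone gene Gap43 rose in all 3 knockdowns, by 2.16, 2.29 and at least 2.63 in Tip60 KD, by 0.73, 1.41 and at least 1.86 in Hdac6 KD, and by 1.84, 2.11 and at least 2.61 in double KD. The bounds for Gap43 arise because both control KD arrays read at the floor. Gap43 thus passed the filter on dim values only through the knockdown arrays, and its calls follow in part from that selection. Elavl3, an RNA-binding protein of neurons, fell in Hdac6 KD (-0.83, adjusted p = 0.0041, limma) and double KD (-0.58, adjusted p = 0.0089). Gad1, which makes GABA, was called lower by at least 0.44 in each knockdown, all knockdown arrays being at the floor. It passed the filter only through the control KD arrays, so that its calls too follow in part from that selection. The defining markers Dcx and Nefm were at the floor on all 8 arrays, and Syt1 was at the floor on 7.

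Tubb2a, a beta-tubulin abundant in brain, had levels of 1.42 and 1.39 on the control arrays, 2.03 and 2.00 with Tip60 KD, 1.62 and 1.66 with Hdac6 KD and 1.91 and 1.86 with double KD. It rose by 0.61, 0.23 and 0.48 in Tip60, Hdac6 and double KD (each ± 0.07 SE; adjusted p = 0.0022, 0.065 and 0.0068, limma). The Hdac6 KD call was lost without control KD A, control KD B, Hdac6 KD A or Hdac6 KD B (change 0.25, 0.22, 0.26 and 0.21, adjusted p = 0.155, 0.184, 0.148 and 0.240). The probe named for its pseudogene Tubb2a-ps2 had levels of -0.28 and -0.16 for control KD, 0.49 and 0.41 for Tip60 KD, -0.03 and -0.07 for Hdac6 KD and 0.22 and 0.28 for double KD. It was called in Tip60 KD (0.66 ± 0.08 SE, adjusted p = 0.0026, limma) and double KD (0.47, adjusted p = 0.011) and not in Hdac6 KD (0.17, adjusted p = 0.21). Tubb4b, a beta-tubulin of most tissues, had levels of 4.36 and 3.97 on the control arrays, 4.89 and 4.81 with Tip60 KD, 4.82 and 4.73 with Hdac6 KD and 4.61 and 4.62 with double KD. Its changes were 0.69, 0.62 and 0.45 (each ± 0.14 SE; adjusted p = 0.012, 0.027 and 0.061, limma), all knockdown arrays being above both controls. Without Hdac6 KD A or Hdac6 KD B the Tubb4b call in Hdac6 KD was lost (change 0.57 and 0.66, adjusted p = 0.12 and 0.101), and so was that in double KD without control KD B, double KD A or double KD B (change 0.26, 0.46 and 0.45, adjusted p = 0.149, 0.167 and 0.182).

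Tubb4a, another isotype of brain, was called in Tip60 KD (0.44 ± 0.14 SE, adjusted p = 0.057, limma) and had changes of 0.33 with Hdac6 KD (adjusted p = 0.15) and -0.02 with double KD (adjusted p = 0.95). Tubb6, the isotype of muscle and other non-neural cells, fell in Tip60 KD (-0.54 ± 0.12 SE, adjusted p = 0.018, limma) and double KD (-0.37, adjusted p = 0.076) and had a change of 0.21 in Hdac6 KD (adjusted p = 0.29). Tip60 KD and Hdac6 KD differed at Tubb6 by -0.75 ± 0.12 SE (adjusted p = 0.013, limma). For Tubb5, the main beta-tubulin of dividing cells, levels were 6.24 and 6.12 for control KD, 6.14 and 6.35 for Tip60 KD, 6.35 and 6.38 for Hdac6 KD and 6.19 and 6.24 for double KD. The Tip60 KD and double KD arrays overlapped the controls, and the 95% intervals of the change were -0.18 to 0.31, -0.06 to 0.43 and -0.20 to 0.28. This depended on the scaling: with quantile normalization Tubb5 was called higher in all 3 knockdowns (0.28, 0.40 and 0.29), and with the series matrix values too (0.34, 0.46 and 0.33). Tubb2b, a beta-tubulin of developing brain, had levels of 5.01 and 4.94 on the control arrays, 4.93 and 4.83 with Tip60 KD, 4.75 and 4.62 with Hdac6 KD and 4.88 and 4.92 with double KD on its brighter probe. It was called in Hdac6 KD (-0.29 ± 0.09 SE, adjusted p = 0.062, limma), a call lost without control KD A, control KD B or Hdac6 KD B (change -0.25, -0.32 and -0.22, adjusted p = 0.212, 0.131 and 0.260), and its other probe, which shares 29 bases, was not called (-0.29 ± 0.23 SE).

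Gamma-tubulin and its partner proteins form the ring from which microtubules grow. Of the 7 tested probes of this group, 4, 2 and 2 were called in Tip60, Hdac6 and double KD, all higher. In Hdac6 KD and double KD that is no more than the share of all probes called either way (30.0% and 33.8%). The shares of all probes called higher there were 14.9% and 16.8%. Gamma-tubulin itself, Tubg1, was not called, with changes of 0.08, 0.02 and -0.01 and 95% intervals of -0.11 to 0.28, -0.17 to 0.21 and -0.20 to 0.18. Tubgcp5, a ring subunit, had levels of -1.17 and -1.14 for control KD, -0.11 and -0.30 for Tip60 KD, -0.68 and -0.87 for Hdac6 KD and -0.54 and -0.71 for double KD. It rose by 0.95, 0.38 and 0.53 (each ± 0.11 SE; adjusted p = 0.0025, 0.065 and 0.022, limma), and by more in Tip60 KD than in Hdac6 KD (difference 0.57, adjusted p = 0.024). Its Hdac6 KD call was lost without control KD A, control KD B, Hdac6 KD A or Hdac6 KD B (change 0.36, 0.40, 0.28 and 0.48, adjusted p = 0.208, 0.172, 0.241 and 0.106).

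Tubgcp6, a subunit of the same ring, had levels of -0.91 and -0.78 on the control arrays, -0.23 and -0.11 with Tip60 KD, -0.68 and -0.59 with Hdac6 KD and -0.64 and -0.56 with double KD. The call in Tip60 KD (0.68 ± 0.09 SE, adjusted p = 0.0034, limma) was not matched in Hdac6 KD (0.21, adjusted p = 0.16) or double KD (0.24, adjusted p = 0.11), although both passed with the replicate letter as a block (adjusted p = 0.022 and 0.013). Tubgcp4, also of the ring, had levels of 0.10 and 0.13 for control KD, 0.74 and 0.67 for Tip60 KD, 0.48 and 0.33 for Hdac6 KD and 0.51 and 0.35 for double KD on A_55_P2108808. Its changes were 0.59, 0.29 and 0.32 (each ± 0.09 SE; adjusted p = 0.0060, 0.081 and 0.058, limma). The Tubgcp4 call in Hdac6 KD was lost without any 1 of the control KD, Tip60 KD and Hdac6 KD arrays (change 0.21 to 0.37, adjusted p = 0.114 to 0.283), and that in double KD without control KD A, control KD B or double KD A (change 0.30, 0.33 and 0.24, adjusted p = 0.189, 0.149 and 0.202). On its probe A_55_P2108803 the Tip60 KD arrays read -2.71 and 0.70, while the other 6 lay between 0.43 and 0.59. That 1 array set the mean of -1.44 against control KD, which was not called (± 0.99 SE, adjusted p = 0.34, limma). Tubgcp2, which forms the small gamma-tubulin complex with Tubgcp3, rose in Tip60 KD (0.26 ± 0.08 SE, adjusted p = 0.046, limma) and had changes of 0.06 and -0.20 in Hdac6 KD and double KD (adjusted p = 0.64 and 0.11). Tubgcp3 was not called (0.12, 0.14 and 0.27).

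Delta- and epsilon-tubulin belong to the centriole. Tubd1 fell in Tip60 KD (-0.42 ± 0.11 SE, adjusted p = 0.035, limma) and double KD (-0.33, adjusted p = 0.083) and had a change of -0.05 in Hdac6 KD (adjusted p = 0.83). Tube1 had levels of 0.92 and 0.90 on the control arrays, 0.67 and 0.65 with Tip60 KD, 0.41 and 0.10 with Hdac6 KD and 0.81 and 0.53 with double KD. All knockdown arrays were below the controls, but only the Hdac6 KD change was called (-0.65 ± 0.14 SE, adjusted p = 0.024, limma). The Tube1 changes of -0.25 in Tip60 KD and -0.24 in double KD were not called (adjusted p = 0.24 and 0.29), and both passed with the replicate letter as a block (adjusted p = 0.079 and 0.097). Without control KD A or Hdac6 KD B the Hdac6 KD call of Tube1 was lost (change -0.64 and -0.49, adjusted p = 0.104 and 0.109).

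Stathmins bind tubulin dimers and promote the shortening of microtubules. Of 5 tested probes, 3, 1 and 2 were called in Tip60, Hdac6 and double KD, all higher. Stmn3, a stathmin of neurons, had levels of -2.55 and -2.71 for control KD, -0.88 and -1.17 for Tip60 KD, -1.34 and -1.53 for Hdac6 KD and -1.26 and -1.43 for double KD. All 6 knockdown arrays lay far above both controls, of which control KD B was at the floor. On this scale the changes, counted in part from the floor, were at least 1.61, 1.20 and 1.29 (each ± 0.14 SE; adjusted p = 0.0011, 0.0047 and 0.0033, limma). With the series matrix values the Hdac6 KD change was 0.78. Only 1 control KD array was well above background, so the probe passed the filter on dim values through the knockdown arrays. Its calls thus follow in part from that selection. Tip60 KD exceeded Hdac6 KD by 0.41, which was not called (adjusted p = 0.11, limma). Its probe lies at chr2:181041396-181041455 (mm9, minus strand) and holds no AATAAA, and its first 30 bases are printed as the sequence behind the only stathmin called in all 3 knockdowns.
Stmn3: cagcggcgacaagaacgttttcgggttttg

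Stmn1, the stathmin of dividing cells, had levels of 4.15 and 4.22 on the control arrays, 4.76 and 4.68 with Tip60 KD, 4.37 and 4.35 with Hdac6 KD and 4.37 and 4.39 with double KD on A_55_P2043862. It was called in Tip60 KD (0.53 ± 0.07 SE, adjusted p = 0.0036, limma), while the changes of 0.18 and 0.19 in Hdac6 KD and double KD were not (adjusted p = 0.15 and 0.11) and passed with the replicate letter as a block (0.059 and 0.045), with quantile normalization (0.054 and 0.026) and with no filter on dim probes (0.063 and 0.048). The other Stmn1 probe, which lies further along the transcript, was not called (0.01, -0.05 and 0.08, each ± 0.09 SE). Stmn2, of growing axons, rose in Tip60 KD (0.48 ± 0.12 SE, adjusted p = 0.027, limma) and double KD (0.46, adjusted p = 0.038), had a change of -0.24 in Hdac6 KD (adjusted p = 0.22), and differed between Tip60 KD and Hdac6 KD by 0.72 (adjusted p = 0.014). Stmn4 stayed at or near the floor, with levels from -2.71 to -2.54 on the probe tested.

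Tppp3, a protein of the Tppp family that bundles microtubules, had the largest change of any member. Levels were -1.1 and -1.20 for control KD, 1.32 and 1.39 for Tip60 KD, -0.64 and -0.67 for Hdac6 KD and 0.75 and 0.59 for double KD. The 4 groups did not overlap, in the order Tip60 KD, double KD, Hdac6 KD and control KD. The changes were 2.50, 0.49 and 1.81 (each ± 0.09 SE; adjusted p = 0.00034, 0.015 and 0.00074, limma), which is 5.67-fold, 1.41-fold and 3.52-fold. Tip60 KD exceeded double KD by 0.69 ± 0.09 SE (double KD minus Tip60 KD -0.69, adjusted p = 0.048, limma), and double KD exceeded Hdac6 KD by 1.32 (adjusted p = 0.0043). Within slides A and B the Tip60 KD change was 2.42 and 2.59. The probe lies at chr8:107991755-107991814 (mm9, minus strand), holds no AATAAA, and begins with the bases shown here for the member that changed most.
Tppp3: gcaggacatcctggacgacagtggctacgt

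Tau, encoded by Mapt, stabilises the microtubules of axons and was measured by 3 probes. Levels of A_55_P2100149 at chr11:104189496-104189555 (mm9, plus strand) were -1.01 and -1.06 on the control arrays, 0.02 and 0.17 with Tip60 KD, -0.97 and -1.0 with Hdac6 KD and 0.04 and -0.09 with double KD. The Hdac6 KD arrays lay just above the controls, and all 4 arrays with Tip60 KD, alone or in the double, lay far above both. The changes were 1.13, 0.05 and 1.01 (each ± 0.09 SE; adjusted p = 0.00094, 0.75 and 0.0019, limma). A neighbouring probe, A_55_P1954486, had levels of -0.13 and 0.13 for control KD, 0.80 and 1.12 for Tip60 KD, -0.28 and -0.10 for Hdac6 KD and 0.54 and 0.68 for double KD, with changes of 0.96, -0.19 and 0.61 (each ± 0.15 SE; adjusted p = 0.0058, 0.45 and 0.034, limma). For this probe the double KD call was lost without control KD A (change 0.48, adjusted p = 0.150) or double KD B (0.54, adjusted p = 0.144), and the Hdac6 KD change passed with the replicate letter as a block (adjusted p = 0.062). The third probe, 3′ of both, was at the floor on every control KD and Hdac6 KD array and read -2.41 and -2.42 in Tip60 KD and -2.42 and -2.47 in double KD. It passed the filter on dim values only through those 4 arrays, so that its calls follow in part from that selection, and its changes are lower bounds. Tip60 KD exceeded Hdac6 KD by 1.08 on A_55_P2100149 and by 1.15 on A_55_P1954486 (adjusted p = 0.0029 and 0.0077, limma). Of the 13 tested neuron markers, 6 were called higher and 1 lower in Tip60 KD, where Mapt and Stmn2 rose. In double KD, where both also rose, 5 were called higher and 2 lower. In Hdac6 KD 5 were called higher and 2 lower, and neither Mapt nor Stmn2 was called. The part of the markers in the changes of Mapt and Stmn2 was not tested.

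End-binding proteins track the growing plus ends of microtubules. Mapre3, the member expressed in neurons, had levels of -0.52 and -0.57 on the control arrays, -0.92 and -0.85 with Tip60 KD, -1.40 and -1.15 with Hdac6 KD and -0.90 and -0.82 with double KD. All 6 knockdown arrays lay below both controls, lowest in Hdac6 KD. Its changes were -0.34, -0.73 and -0.31 (each ± 0.10 SE; adjusted p = 0.051, 0.0075 and 0.077, limma), and Tip60 KD and double KD each differed from Hdac6 KD (0.39 and 0.42, adjusted p = 0.053 and 0.082). The Mapre3 call in Tip60 KD was lost without control KD A, control KD B, Tip60 KD A or Tip60 KD B (change -0.32, -0.36, -0.31 and -0.38, adjusted p = 0.118 to 0.177), and that in double KD without any 1 of the control KD, Tip60 KD and double KD arrays (change -0.36 to -0.27, adjusted p = 0.111 to 0.237).

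Mapre1, the general end-binding protein, gave a different result on each of its probes. Levels of the brighter A_55_P2473316 were 1.87 and 1.71 for control KD, 1.84 and 1.90 for Tip60 KD, 1.80 and 1.62 for Hdac6 KD and 1.73 and 1.70 for double KD, and none of the changes was called (0.08, -0.08 and -0.07). The other Mapre1 probe, A_51_P185509, fell in Tip60 KD (-0.41 ± 0.08 SE, adjusted p = 0.012, limma) and double KD (-0.48, adjusted p = 0.010) and had a change of 0.11 in Hdac6 KD (adjusted p = 0.39). Mapre2 was called higher on 1 of its 2 probes in Tip60 KD (0.41 ± 0.13 SE, adjusted p = 0.053, limma) and Hdac6 KD (0.41, adjusted p = 0.068), and on neither in double KD (0.22 and 0.34).

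The classical microtubule-associated proteins, listed on the array under their Mtap names, bind along the side of the polymer. Of their 9 tested probes, 4 were called in Tip60 KD (2 higher, 2 lower), 5 in Hdac6 KD (2 higher, 3 lower) and 4 in double KD (2 higher, 2 lower). Mtap7, which recruits kinesin-1 to microtubules, fell in all 3 knockdowns on both probes. A_55_P1959903 had levels of 0.36 and 0.36 on the control arrays, -0.59 and -0.44 with Tip60 KD, -0.52 and -0.35 with Hdac6 KD and -0.76 and -0.62 with double KD, with changes of -0.87, -0.80 and -1.05 (each ± 0.10 SE; adjusted p = 0.0022, 0.0057 and 0.0023, limma). A_52_P109548 had levels of 1.77 and 1.74 for control KD, 1.23 and 1.1 for Tip60 KD, 1.48 and 1.17 for Hdac6 KD and 1.16 and 0.90 for double KD, with changes of -0.59, -0.43 and -0.73 (each ± 0.14 SE; adjusted p = 0.023, 0.082 and 0.016, limma). The control arrays were the highest on both Mtap7 probes. On the second of these the Tip60 KD call was lost without control KD A or Tip60 KD B (change -0.58 and -0.53, adjusted p = 0.102 and 0.111), and the Hdac6 KD call without control KD A, control KD B, Tip60 KD A, Tip60 KD B or Hdac6 KD B (change -0.45 to -0.28, adjusted p = 0.12 to 0.323).

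Mtap1b, of growing axons, was called in Hdac6 KD. Its levels were 0.72 and 0.52 on the control arrays, 0.58 and 0.23 with Tip60 KD, 1.75 and 1.42 with Hdac6 KD and 1.06 and 0.81 with double KD. The Hdac6 KD change was 0.96 ± 0.18 SE (adjusted p = 0.017, limma), and Tip60 KD lay below Hdac6 KD by 1.18 (Tip60 KD minus Hdac6 KD -1.18, adjusted p = 0.011). The Mtap1b changes of -0.21 in Tip60 KD and 0.31 in double KD (adjusted p = 0.44 and 0.28) passed with the replicate letter as a block (adjusted p = 0.033 and 0.010). Mtap4, the form found in most dividing cells, had levels of 2.87 and 2.70 for control KD, 2.91 and 2.84 for Tip60 KD, 2.41 and 2.27 for Hdac6 KD and 2.75 and 2.61 for double KD. It fell in Hdac6 KD (-0.44 ± 0.10 SE, adjusted p = 0.031, limma) and not in Tip60 KD (0.09) or double KD (-0.11), and the call was lost without control KD A or Hdac6 KD B (change -0.36 and -0.37, adjusted p = 0.131 and 0.152).

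Mtap1a, of mature neurons, was at the floor on both control KD arrays at A_66_P140452 and read -2.24 and -2.02 with Tip60 KD, -1.81 and -1.83 with Hdac6 KD and -1.89 and -1.49 with double KD. The changes, counted from the floor, were therefore at least 0.58, 0.89 and 1.02 (adjusted p = 0.029, 0.012 and 0.0067, limma). The probe passed the filter on dim values only through the knockdown arrays, so that its calls follow in part from that selection. Without control KD A, control KD B or Tip60 KD B the Tip60 KD call of Mtap1a was lost (change 0.58, 0.58 and 0.47, adjusted p = 0.111, 0.106 and 0.136), and the other Mtap1a probe was not called (0.05, 0.29 and 0.18). Mtap2, of dendrites, had levels of -2.04 and -2.29 on the control arrays, -1.37 and -1.84 with Tip60 KD, -1.68 and -1.99 with Hdac6 KD and -1.38 and -1.59 with double KD on A_52_P22763. This probe was called in Tip60 KD (0.56 ± 0.20 SE, adjusted p = 0.082, limma) and double KD (0.68, adjusted p = 0.057). Neither Mtap2 call held with quantile normalization (adjusted p = 0.46 and 0.39) or without control KD A (change 0.69 and 0.81, adjusted p = 0.13 and 0.112) or control KD B (0.44 and 0.56, adjusted p = 0.284 and 0.217). The Tip60 KD call was also lost without Tip60 KD A (0.33, adjusted p = 0.303), double KD A or double KD B (0.56, adjusted p = 0.114 for each), and the double KD call without double KD A (0.58, adjusted p = 0.204) or double KD B (0.79, adjusted p = 0.12). With the replicate letter as a block the Hdac6 KD change of 0.33 was called (adjusted p = 0.020), and the other Mtap2 probes were not called in any knockdown.

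The single knockdowns were next set against each other. Between Tip60 KD and Hdac6 KD, 22 of the 42 member probes differed, 17 higher in Tip60 KD and 5 lower, against 23.9% of all probes (12.5% higher and 11.4% lower). Higher in Tip60 KD by more than 1 unit were Tppp3 (2.01), Tubb3 (1.44) and Mapt (1.15 and 1.08), and lower were both probes of Tuba1c (-0.47 and -0.54), Tubb6 (-0.75), Mapre1 (-0.53) and Tubd1 (-0.37). The count fell to 13, 13, 11 or 11 without Tip60 KD A, Tip60 KD B, Hdac6 KD A or Hdac6 KD B, and the share of all probes to 15.0%, 13.7%, 11.8% and 11.8%.

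The double knockdown was then compared with each single one. Against Tip60 KD, 4 probes differed, all lower in double KD, against 4.73% of all probes (3.30% lower): Tppp3 (-0.69), Tubgcp2 (-0.46), Tubgcp6 (-0.44) and Stmn1 (-0.34). With the replicate letter as a block there were 12 (1 higher, 11 lower), against 27.6% of all probes. Leaving out any 1 array lowered the count to 0 or 1. Against Hdac6 KD, 12 probes differed, against 10.2% of all probes (5.22% higher), and with the block 22, against 29.3%. The 9 that were higher in double KD were those of Tppp3 (1.32), Tubb3 (1.24), Mapt (0.96, 0.80 and, counted from the floor, at least 0.26), Stmn2 (0.71), Mapre3 (0.42) and Tuba1a (0.42 and 0.39), and the 3 lower were of Mapre1 (-0.59), Tubb6 (-0.58) and Tuba1c (-0.42). The count fell to 3 without Hdac6 KD A, Hdac6 KD B or double KD B, to 4 without double KD A and to 7 without control KD A or control KD B, and the share of all probes to 1.09%, 1.02%, 1.76%, 2.23% and, for either control, 6.78%.

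**Figure D3:**
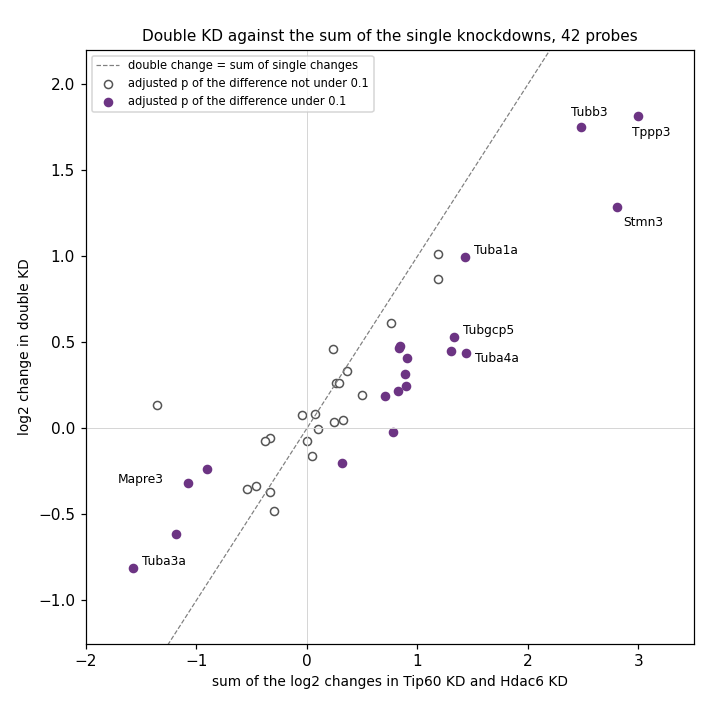
Log2 change in double KD (vertical axis) against the sum of the changes in Tip60 KD and Hdac6 KD (horizontal axis) for the 42 tested member probes, all measured from the same control KD arrays. Filled points have an adjusted p under 0.1 for the difference between both, and they lie between 0 and the dashed line of equality, except Tubgcp2 and Tubb4a, whose double KD changes were -0.20 and -0.02.

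The change in double KD was also compared with the sum of the single changes. It differed from the sum for 20 of 42 probes, 4 higher and 16 lower, against 23.3% of all probes (11.2% higher and 12.1% lower). The 16 were genes that rose in 1 or both single knockdowns and whose double KD change was smaller than the sum. Among them were Stmn3 (-1.52 ± 0.20 SE, adjusted p = 0.011, limma), Tppp3 (-1.18 ± 0.13, adjusted p = 0.0084) and Tuba4a (-1.0 ± 0.18, adjusted p = 0.021). For Stmn3 control KD B was at the floor, and the probe passed the filter on dim values through the knockdown arrays. The 4 were Tuba3a (0.76 and 0.57), Mapre3 (0.76) and Tube1 (0.66), all with changes below 0 in each knockdown and, in double KD, nearer to 0 than the sum. Both this count and the share of all probes called fell when any 1 array was left out. Hdac6 RNA was lowered less in double KD than in Hdac6 KD, as given above, and the part of that in these differences was not tested.

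Genes that fold, modify, nucleate and move along microtubules were looked at through 5 lists, described by counts and medians. The enzymes that modify tubulin include Atat1, which acetylates it, Sirt2 and Hdac6, which deacetylate it, and ligases and carboxypeptidases that add or remove tyrosine and glutamate. Of 22 tested, 8 were called in Tip60 KD (7 higher), 7 in Hdac6 KD (6 higher) and 8 in double KD (7 higher). The 1 lower in each was Hdac6, whose other probe was not called in Tip60 KD. Hdac6 is the target of the hairpin in Hdac6 KD and double KD, so its calls there were set by the design. The shares called in this list, Hdac6 included, were near those of all probes (40.6%, 30.0% and 33.8%). Ttl, the ligase that restores the end tyrosine of alpha-tubulin, had levels of -2.0 and -2.42 for control KD, -0.96 and -1.09 for Tip60 KD, -1.67 and -1.69 for Hdac6 KD and -1.22 and -1.08 for double KD, and rose by 1.19, 0.53 and 1.06 (adjusted p = 0.0027, 0.053 and 0.0059, limma). Ttll4 (0.56, 0.86 and 0.70) and Ttll5 (0.74, 0.49 and 0.59), which add glutamate chains, were called higher in all 3 knockdowns. The median of this list was 0.12, 0.11 and 0.25 in Tip60, Hdac6 and double KD. Atat1 was not called (-0.44, -0.51 and -0.27).

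Tubulin is folded by the CCT chaperonin, prefoldin and the tubulin cofactors. Of 21 such genes, 12 were called in Tip60 KD (6 higher, 6 lower), 10 in Hdac6 KD (3 higher, 7 lower) and 13 in double KD (3 higher, 10 lower), with medians of 0.04, -0.15 and -0.23. Tbcb, a cofactor that binds alpha-tubulin, rose in all 3 knockdowns (0.97, 0.33 and 0.29), and the chaperonin subunit Cct6a in Tip60 KD (0.78, adjusted p = 0.0044, limma), with changes of 0.14 and 0.18 that were not called in Hdac6 KD and double KD. Arl2, a small GTPase that works with the cofactors, fell in each (-0.72, -0.84 and -0.71), and so did the prefoldin subunit Vbp1 (-0.58, -0.69 and -0.73).

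Of the 16 nucleation genes, 5 were called in Tip60 KD (2 higher), 3 in Hdac6 KD (1 higher) and 5 in double KD (1 higher), with medians of -0.08, -0.07 and -0.04 and with shares below those of all probes (40.6%, 30.0% and 33.8%). Mzt1, a small subunit of the gamma-tubulin ring, fell in all 3 knockdowns (-1.01, -0.85 and -0.73), and the augmin subunit Haus7 did too (-0.32, -0.44 and -0.43). Haus2 and Haus5, also of augmin, rose in Tip60 KD (0.65 and 0.50) and were not called in the others, and the difference between knockdowns was not tested for them. Mzt1 RNA thus went down while that of the ring subunits Tubgcp4 and Tubgcp5 went up in the same cultures.

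Of 21 tested genes for microtubule ends and severing, 12 were called in Tip60 KD (7 higher), 7 in Hdac6 KD (4 higher) and 9 in double KD (4 higher), with medians of -0.07, -0.02 and 0.01. Slain2 (1.20, 0.73 and 0.84) and Clip1 (0.66, 0.85 and 0.72), which act at growing ends, rose in all 3 knockdowns. Clip3 (0.73, 0.89 and 0.52) did too. The kinesin Kif18a, which dampens the growth of spindle microtubules, fell in all 3 (-0.70, -0.32 and -0.65). Of 28 tested motor genes, 15 were called in Tip60 KD (9 higher), 7 in Hdac6 KD (5 higher) and 10 in double KD (6 higher), against 40.6%, 30.0% and 33.8% of all probes and with medians of 0.14, 0.02 and 0.08. The dynein light chain Dynlt3 fell throughout (-0.93, -1.14 and -0.83). Dync1li1, a dynein light intermediate chain, rose in Hdac6 KD (0.84) and double KD (0.96) and was not called in Tip60 KD (0.23). Dctn4, of the dynein activator dynactin, rose in all 3 (0.41, 0.45 and 0.83), and its fellow subunit Dctn6 in Tip60 KD and double KD (0.72 and 0.51).

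**Figure D4:**
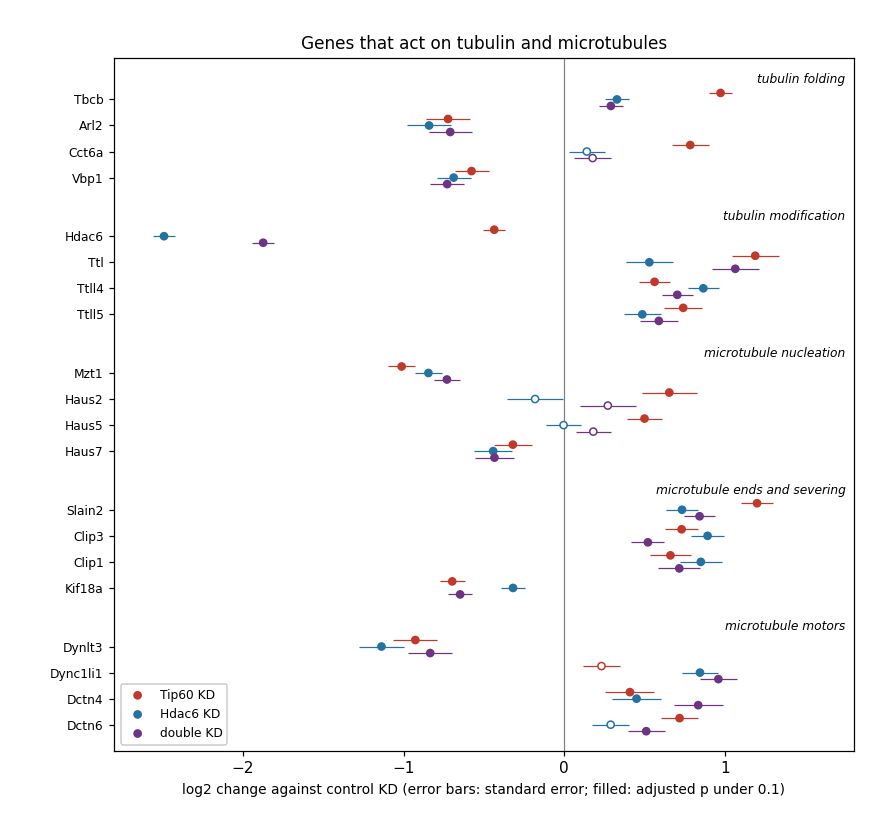
Log2 change against control KD (horizontal axis) of up to 4 called genes per list in Tip60 KD (red), Hdac6 KD (blue) and double KD (purple), with standard errors and filled points where the adjusted p was under 0.1. Ttl, Slain2 and Tbcb are highest in Tip60 KD, and Mzt1, Dynlt3, Arl2 and Vbp1 are below 0 in all 3 knockdowns.

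Markers of other cells that make many microtubules or could arise in such cultures were also counted. Of 8 genes of multiciliated cells 6 were tested, and 1, 2 and 1 were called in Tip60, Hdac6 and double KD, with Foxj1 and Dnah5 at the floor on all 8 arrays. The called genes were Ccdc40, higher in all 3 (0.60, 0.77 and 0.50), and Tekt1, lower in Hdac6 KD (-0.25). The summed signal of this list was 19.9 to 20.1 in control KD, 22.9 to 23.9 in Tip60 KD, 18.0 to 21.2 in Hdac6 KD and 21.6 on both double KD arrays. Mcidas weighs most in that sum, with levels of 4.11 and 4.10 in control KD, and was not called in any knockdown. Of 7 primitive endoderm genes 2 were tested and 0 were called (limma, and 0 at an unadjusted p under 0.05), and 5 were at the floor throughout. Of 10 fibroblast genes 5 were tested and 2, 1 and 3 were called, with Dcn, Postn, Pdgfra and S100a4 at the floor. Col1a1 (0.98 and 0.79) and Thy1 (0.47 and 0.53) were higher in Tip60 KD and double KD, and Pdgfrb was lower in Hdac6 KD and double KD (-1.09 and -0.36). The list's summed signal was 3.37 to 3.70 in control KD, 3.93 to 4.43 in Tip60 KD, 3.06 to 3.18 in Hdac6 KD and 4.01 to 4.31 in double KD. Thy1 weighs most in it. Of the 10 ESC markers, 4 were called in Tip60 KD (4 higher), 2 in Hdac6 KD (2 higher) and 4 in double KD (3 higher), Pou5f1 being higher in all 3 (1.01, 0.47 and 0.63). The part of these markers in the changes of the members was not tested.

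Promoters of the member genes were read from RefSeq (GRCm38.p6), over the 250 bases before the start. The table held 26 member genes, 9 of the 10 called higher in all 3 knockdowns among them. The core of the GC box, GGGCGG on either strand, was in 6 of these 9 (66.7%), in 11 of the 26 (42.3%) and in 32.7% of 32851 promoters. The CCAAT box, searched as CCAAT on either strand, was in 3 of the 9 (33.3%), in 9 of the 26 (34.6%) and in 33.8%. These are descriptions of letters, and the arrays measure no factor at a promoter. The promoters of Tubb3, Stmn3 and Tuba1a are printed since these genes were called higher in all 3 knockdowns and differ in the motifs they hold, which are in capitals. Tubb3 holds 2 GC boxes and 1 CCAAT box, Tuba1a holds 1 of each, and Stmn3 holds neither.
Tubb3, chr8:123411303-123411552 (GRCm38.p6, plus strand): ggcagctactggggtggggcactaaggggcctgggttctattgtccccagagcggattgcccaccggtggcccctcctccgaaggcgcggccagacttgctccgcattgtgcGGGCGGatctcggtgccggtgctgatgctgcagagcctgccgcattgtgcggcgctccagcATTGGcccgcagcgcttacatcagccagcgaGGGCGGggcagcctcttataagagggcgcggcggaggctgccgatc
Stmn3, chr2:181314501-181314750 (GRCm38.p6, minus strand): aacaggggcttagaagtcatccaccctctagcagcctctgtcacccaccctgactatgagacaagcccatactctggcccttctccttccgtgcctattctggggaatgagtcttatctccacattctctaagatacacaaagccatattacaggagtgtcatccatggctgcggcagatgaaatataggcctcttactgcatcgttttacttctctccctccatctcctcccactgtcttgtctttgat
Tuba1a, chr15:98953502-98953751 (GRCm38.p6, minus strand): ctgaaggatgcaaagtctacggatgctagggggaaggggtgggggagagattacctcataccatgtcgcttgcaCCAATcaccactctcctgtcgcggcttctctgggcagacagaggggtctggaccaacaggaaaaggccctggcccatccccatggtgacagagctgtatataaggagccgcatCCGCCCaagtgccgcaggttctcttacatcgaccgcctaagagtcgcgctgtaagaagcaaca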

How the data were processed

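The authors hybridised Cy3-labelled RNA to 8 one-colour Agilent arrays of mouse genes, 2 replicates that the methods call biological in each of 4 groups, and deposited each array's scanner output. Per the file headers these are spot intensity values from Feature Extraction (version 10.7.1.1 in the submitters' processing notes), after background subtraction and with control spots listed. The authors also deposited a matrix of normalized log2 values, used here only as an alternative. Its probe order on each array was that of the scanner values, and its exact scaling is not given in the sources used here. Probe positions are mm9, as the files give them.

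From the processed signal, spots flagged as outliers were left out, spots of a probe were averaged, and signals were scaled to the 75th percentile of their array. The floor was the highest, over arrays, of the lowest signal well above background (0.153 of that percentile). Testing required that 2 or more arrays read a probe both above the floor and well above background, which kept 22594 of 39429 probes, and 9.14% of their values were at the floor. One limma model (3.58.1 in R 4.3.3) over all 4 groups, without a block, gave 7 comparisons with Benjamini-Hochberg adjustment over all probes tested. Steps were tested on simulated data, with 200 probes changed in 1 knockdown at a time. Of changes of 1.5-fold, 26, 43 and 40 were called in Tip60, Hdac6 and double KD. Of changes of 2-fold, 139, 136 and 131 were called. Most changes of 1.5-fold were thus missed, so a probe not called may still have changed. Deviations shared by the arrays of a slide were not simulated. Array numbers, not read depth, limit the precision, and p-values measure the spread between these samples. Samples with the same letter shared a slide and deviated together (r = 0.644 to 0.787 over 6 pairs of groups). A fit with the letter as a block is therefore given where it changes a call against control KD of a probe given on every array. For other probes and comparisons its calls were only counted. Some of those described as not called may therefore pass with it. Each group kept 1 place on both slides, so place and group cannot be told apart.

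Values on every array are given for probes called with a change of 1.5-fold or more in at least 1 knockdown, and for the brightest probe of Tuba1a, Tuba1b, Tuba1c, Tubb5, Tubb2a, Tubb2b, Tubb3, Stmn1, Mapre1 and Mtap4. From each of 5 pathway lists at most 4 called genes are named, by largest change. The other Tuba1b probe, single probes of Mapt, Tubgcp4, Stmn4 and Tubg2, the array values of Ttl, and Atat1, Pou5f1 and the named markers of other cells were chosen after their values were seen. Members and gene lists were chosen with earlier results of these data known. RefSeq named 27234 probes. Figures and sequences were made with Python 3.11.15, pandas 2.3.3 and matplotlib 3.10.9. Alternatives were normexp background correction, quantile normalization, the deposited matrix, a lower floor, values under the floor left out, other filters, 1 probe per gene name, the block, the compared arrays alone, and each array left out.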

Additional observations from a re-analysis of the deposited data

Results flagged for a closer look

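For 16 of the probes given on every array, the change in double KD differed from the sum of the changes in Tip60 KD and Hdac6 KD by limma's test of that difference at an adjusted p under 0.1. For 12 of them the double KD change fell short of a sum of rises. Stmn3, with control KD B at the floor, differed by -1.52 (adjusted p = 0.011). Tppp3 differed by -1.18 (0.0084), Tuba4a by -1.0 (0.021) and Tubb4b by -0.85 (0.038). The tubulin isotypes Tubb3 (-0.72, adjusted p = 0.054), Tuba1a (-0.44, 0.059), Tubb2a (-0.36, 0.063) and the pseudogene probe Tubb2a-ps2 (-0.36, 0.092) went the same way. So did the ring subunits Tubgcp5 (-0.79, adjusted p = 0.029), Tubgcp6 (-0.65, 0.027) and Tubgcp4 (-0.57, 0.043) and the stathmin Stmn1 (-0.52, 0.027). For the other 4 the double KD change was nearer to 0 than a sum of falls, namely both overlapping probes of Tuba3a (0.76, adjusted p = 0.013, and 0.57, 0.034), Mapre3 (0.76, 0.025) and Tube1 (0.66, 0.078). Over all probes, which were not selected in this way, 23.3% were called in this comparison. Most of the probes given on every array were chosen for a called change against control KD. The same control KD arrays enter the difference from the sum, so the pattern follows in part from that selection.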

How the results depend on the processing

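The count of called members for double KD against Tip60 KD was 4, against 4.73% of all probes. It became 0 with normexp (8 at an unadjusted p under 0.05, limma), against 0.00443% of all probes. It became 1 with the matrix values (0.695%), 2 with the low floor (2.99%) and 12 with the replicate block (27.6%). With only the arrays compared it became 0 (7 unadjusted), against 0% of all probes. For double KD against Hdac6 KD the count was 12, against 10.2% of all probes. It became 7 with normexp (5.94%), 7 with the matrix values (5.25%) and 22 with the replicate block (29.3%). With only the arrays compared it became 0 (18 unadjusted), against 0% of all probes. For the difference from the sum the count of 20 (23.3%) became 11 with normexp (17%). With each array left out, the counts ran from 22 to 27 (Tip60 KD), 9 to 18 (Hdac6 KD), 15 to 23 (double KD), 11 to 21 (Tip60 KD against Hdac6 KD), 0 to 1 (double KD against Tip60 KD, with 6 to 10 at an unadjusted p under 0.05 where it was 0), 3 to 9 (double KD against Hdac6 KD) and 11 to 16 (difference from the sum). In each fit with 1 array left out, the share of all probes called was below that with all 8 arrays. The cause was not tested. The block changed no call of a probe given by array other than those named with it above, and left more calls overall (30, 28 and 30 members in Tip60, Hdac6 and double KD, against 61.0%, 53.4% and 55.9% of all probes). For the probes given by array, 1445 values kept their side of the threshold over all alternatives, 36 newly passed it, 118 no longer did and 0 changed sign while called. Leaving out 1 array accounts for 75 of the 118. Calls lost with normexp were those of Mapre3 (Tip60 KD and double KD), Tubgcp4 (Hdac6 KD and double KD), Tuba4a (double KD), and Tubgcp5, Tubb2a, Tubb2b, Mtap4 and 1 Mtap7 probe (Hdac6 KD). Quantile normalization ended those of Tubb2b and Tubgcp5 in Hdac6 KD (changes -0.14 and 0.35), and the matrix values those of Tubb2b, Tubgcp4 and Tubgcp5 in Hdac6 KD (-0.15, 0.25 and 0.24) and of Tubgcp5 in double KD (0.42). With no filter on dim probes, the calls of Tubb3, Tuba1c, Tubgcp4, Tubgcp5 and Mtap7 in Hdac6 KD and of Tuba4a, Tubb4b, Mapre3 and 1 Mapt probe in double KD were lost. With only the arrays compared, so were those of Tubb3, Tuba1c, Tubb2b, Tubb4b, Tubgcp4 and Mtap7 in Hdac6 KD and of Tuba4a, Tubb4b and Tubgcp4 in double KD. Both Mtap2 calls were lost with the matrix values (adjusted p = 0.44 and 0.43, limma) and with no filter on dim probes (0.24 and 0.17). The Tip60 KD call of Mtap2 was also lost with only the arrays compared (adjusted p = 0.16, limma). The matrix values also raised the Tuba1c change in Hdac6 KD to 0.45. With the low floor the Mtap1a changes were 1.14, 1.45 and 1.58. Signal over background limits the dim genes, among them Stmn3, Mtap1a and Mtap2.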
